A study of Mus musculus with 24 samples.

Results

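The glycolysis genes described here are 33 named genes of glucose uptake and breakdown, listed by symbol for their known roles. The list was made with earlier results of these data known. The genes are given in pathway order. They cover 16 steps, from glucose transport to the pyruvate dehydrogenase complex, and 10 of the steps have several members, most of them isoforms of 1 enzyme or transporter. All 33 were found among the 55414 gene identifiers counted, and all 33 were kept by the filter on low counts that left 19616 genes for testing. The libraries came from LSK cells, the lineage-negative, Sca-1-positive, Kit-positive fraction of bone marrow that holds blood stem cells and early progenitors. LSK cells were sorted on postnatal day 21 from offspring of C57BL/6J mothers, which ate regular chow (control) or a Western diet from 4 weeks before mating through pregnancy and lactation. There were 6 libraries each of control females, Western-diet females, control males and Western-diet males, spread over 3 labelled batches with 2 libraries of each group in each batch. The mothers received the diet and the pups were sampled at weaning age, so maternal feeding before and after birth cannot be told apart. The labels do not name litters, and p-values therefore measure the spread between these libraries, some of which may share a dam.

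Glycolysis splits glucose into pyruvate in the cytosol, yielding ATP without oxygen. Hexokinase traps the sugar, phosphofructokinase makes the committed step, and pyruvate kinase makes the last ATP-forming step. Pyruvate then leaves as lactate, through lactate dehydrogenase and monocarboxylate transporters, or enters mitochondria through pyruvate dehydrogenase, which its kinases switch off. Blood stem cells are known for relying on glycolysis in a poorly oxygenated marrow, where the factor HIF-1 turns on many of these genes.

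Promoter sequences are shown for 5 of the genes because the later results turn on them: Hk1 and Pfkm, which were lower in Western-diet females, Hk2 and Pfkp, which were higher, and Ldha, the most abundant of the 33 per length. Each window is the 250 bases before a RefSeq start on GRCm38.p6, written along the gene's own strand. Capitals mark the core of the hypoxia response element (ACGTG), the motif of GATA factors (AGATAA) or the motif of KLF factors (CCACCC) on either strand, so that a motif on the far strand shows as its reverse complement. The E-box, CACGTG, holds the hypoxia core within it, so that a window with an E-box is counted for both. Hk1 and Ldha have 2 windows each and Pfkm has 4, and the window with the most matches to the capitalized motifs is printed, so its matches were selected for. The E-box was not counted in that choice. An unprinted Pfkm window, at chr15:98092339-98092588 on the plus strand, holds the only CACGTG of the 4. The Hk1 window is at chr10:62340422-62340671 on the minus strand, Hk2 at chr6:82774455-82774704 on the minus strand, Pfkm at chr15:98108221-98108470 on the plus strand, Pfkp at chr13:6648772-6649021 on the minus strand and Ldha at chr7:46845554-46845803 on the plus strand.
Hk1: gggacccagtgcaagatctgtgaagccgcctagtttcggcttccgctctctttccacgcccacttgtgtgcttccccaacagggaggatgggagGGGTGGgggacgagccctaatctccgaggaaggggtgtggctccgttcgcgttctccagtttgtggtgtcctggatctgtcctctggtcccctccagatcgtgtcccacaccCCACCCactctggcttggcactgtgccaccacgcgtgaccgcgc
Hk2: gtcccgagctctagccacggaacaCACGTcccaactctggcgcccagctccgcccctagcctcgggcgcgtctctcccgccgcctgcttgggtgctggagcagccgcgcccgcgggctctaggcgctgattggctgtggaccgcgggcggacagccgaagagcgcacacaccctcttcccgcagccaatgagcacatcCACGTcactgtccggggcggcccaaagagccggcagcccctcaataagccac
Pfkm: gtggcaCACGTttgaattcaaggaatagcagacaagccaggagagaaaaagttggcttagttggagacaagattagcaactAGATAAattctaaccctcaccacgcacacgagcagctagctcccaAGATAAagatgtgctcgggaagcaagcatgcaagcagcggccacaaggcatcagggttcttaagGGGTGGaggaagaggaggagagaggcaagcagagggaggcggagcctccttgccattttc
Pfkp: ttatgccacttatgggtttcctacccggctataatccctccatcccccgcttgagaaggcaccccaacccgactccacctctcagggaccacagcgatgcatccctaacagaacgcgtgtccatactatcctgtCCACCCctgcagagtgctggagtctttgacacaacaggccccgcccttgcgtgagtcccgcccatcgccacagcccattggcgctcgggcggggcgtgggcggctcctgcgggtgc
Ldha: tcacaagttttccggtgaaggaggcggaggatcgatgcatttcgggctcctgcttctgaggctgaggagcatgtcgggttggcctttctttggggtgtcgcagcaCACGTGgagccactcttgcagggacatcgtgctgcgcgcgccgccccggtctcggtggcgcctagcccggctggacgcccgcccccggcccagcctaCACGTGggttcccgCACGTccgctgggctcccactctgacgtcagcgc

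Of the 33 genes, 32 had a RefSeq promoter window and together they had 51, since some genes have several starts. ACGTG was in 39.2% of these 51 windows and in 16.6% of all 32851 windows, and CACGTG was in 11.8% against 6.0%. AGATAA was in 13.7% of the glycolysis windows against 10% of all, and CCACCC was in 39.2% against 28.1%. Windows of the same gene can overlap and share a match, so counts by gene are also given. ACGTG was in a window of 16 of the 32 genes, against 18.5% of all 27025 genes, and CACGTG of 6, against 6.9%. By gene AGATAA was in 4 of the 32 against 11.4%, little different from all genes, and CCACCC in 16 against 30.6%. The files count whole genes by Ensembl identifier, in which Hk1 is ENSMUSG00000037012 on chromosome 10, Hk2 is ENSMUSG00000000628 on chromosome 6, Hk3 is ENSMUSG00000025877 on chromosome 13 and Pfkm is ENSMUSG00000033065 on chromosome 15. Likewise Pfkp is ENSMUSG00000021196 on chromosome 13, Pgam1 is ENSMUSG00000011752 on chromosome 19, Eno3 is ENSMUSG00000060600 on chromosome 11 and Pkm is ENSMUSG00000032294 on chromosome 9. In the windows printed above, ACGTG appears in Hk2, Pfkm and Ldha, AGATAA in Pfkm, and CCACCC in Hk1, Pfkm and Pfkp. A match of letters is a description of the window and not a measured binding site.

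Depth ran from 38057263 to 51581968 gene counts per library. Kit, the stem cell factor receptor that defines the sort, lay between 267 and 883 counts per 1000000 scaled gene counts (CPM), and Cd34, a progenitor surface protein, between 227 and 953 CPM. Ly6a, which encodes Sca-1, the other defining marker, was low, from 2.14 to 39.9 CPM. The T cell gene Cd3e had a median of 0.288 CPM in control females and 0.780 CPM in control males. Batch 3 control females stood apart, with 5238 and 5051 CPM summed over 12 megakaryocyte-erythroid marker genes, against 997 to 2273 CPM in Western-diet females. The batch 3 control males came next, at 3694 and 3773 CPM. Genes called for diet are given with and without the batch 3 control females.

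The 33 genes together took 0.652% to 0.704% of gene counts in control females (median 0.672%) and 0.592% to 0.827% in Western-diet females (median 0.715%). In males the range was 0.672% to 0.811% in controls (median 0.723%) and 0.663% to 0.793% after the Western diet (median 0.705%). The summed output of the pathway overlapped between diets in both sexes.

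Levels of different genes can be compared only per length, as CPM per kilobase (kb) of exon. On that scale Ldha, which makes lactate from pyruvate, was the highest of the 33 at 270.3 ± 59.2 CPM per kb (SD, n = 24). Aldoa (aldolase, 225 CPM per kb), Eno1 (enolase, 183), Pkm (pyruvate kinase, 172), Gapdh (134) and Tpi1 (triosephosphate isomerase, 109) came next. Pfkl, the liver-type phosphofructokinase, reached 52.2 CPM per kb, Hk1, the widely expressed hexokinase, 44.1 and Pgam1, a phosphoglycerate mutase, 43.7. At the bottom were Pdk4 (0.155 CPM per kb, 1 to 45 counts per library) and the neuronal enolase Eno2 (0.120 CPM per kb, 5 to 62 counts), whose values are the least precise. Several of these enzymes have near-identical copies elsewhere in the genome that can share reads: Eno1b, a copy of Eno1, was given 550 to 1412 counts against 33372 to 55792 for Eno1, and another identifier named Aldoa 16 to 129 against 22699 to 34957. Ldha and Aldoa differed by less than the SD of Ldha, but both were measured in the same libraries, so that SD does not test their order. The ranking also rests on the length used. All exons together span 5379 bases for Eno1, 3310 for Ldha and 2911 for Aldoa, and the longest transcripts 2027, 1815 and 1549.

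**Figure D1:**
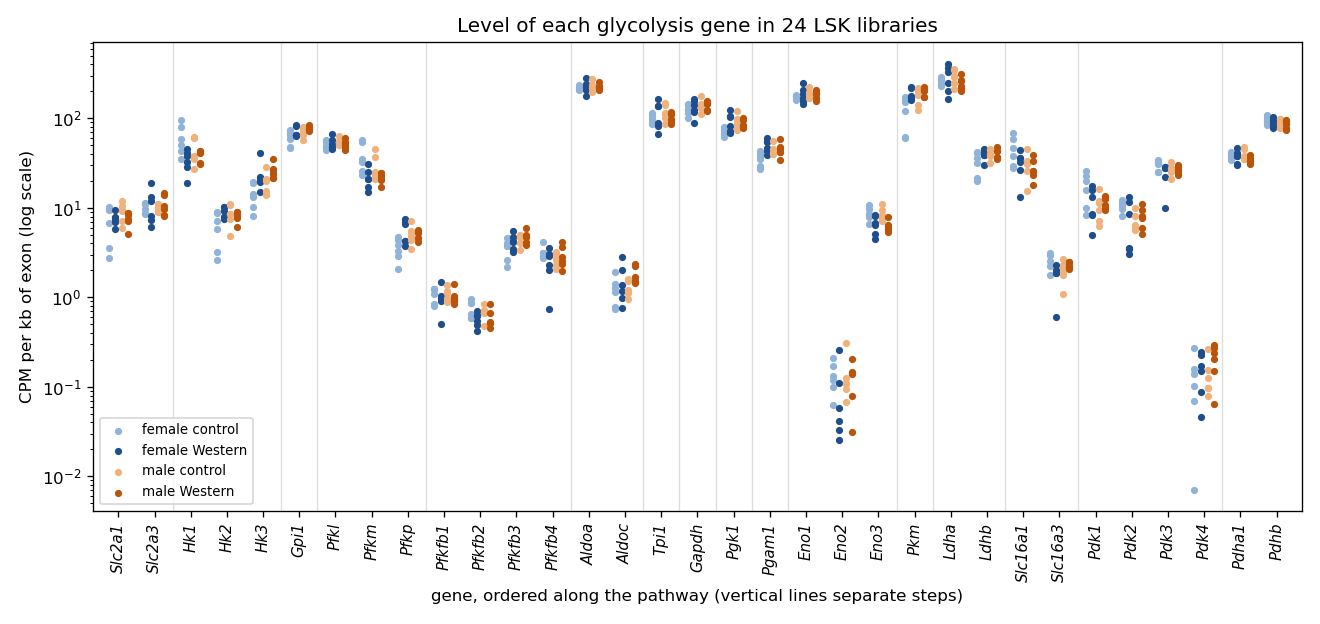
Level of each of the 33 glycolysis genes in CPM per kb of exon (log scale) against gene in pathway order, 1 point per library and 1 colour per group of 6 libraries. Ldha, Aldoa, Eno1 and Pkm lie highest and Eno2 and Pdk4 lowest, and the 2 diets overlap in each sex for every gene.

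In 4 of the 10 steps with several members 1 gene gave over 87% of the level. Aldoa supplied 99.3% of aldolase CPM per kb, Eno1 96.0% of enolase, Slc16a1 (the monocarboxylate transporter MCT1) 93.4% of the lactate transporters and Ldha 87.3% of lactate dehydrogenase. Sugar entry was shared, with 57.3% from Slc2a3 (GLUT3) and 42.7% from Slc2a1 (GLUT1). Among hexokinases Hk1 gave 59.4% ± 12.7 (SD, n = 24), Hk3 29% and Hk2 11.6%. Among phosphofructokinases Pfkl gave 62.3%, the muscle type Pfkm 31.9% and the platelet type Pfkp 5.83%. The bifunctional enzymes that set fructose 2,6-bisphosphate, the activator of phosphofructokinase, were led by Pfkfb3 (48.5%) and Pfkfb4 (31.7%), with Pfkfb1 at 12.2% and Pfkfb2 at 7.55%. Of the pyruvate dehydrogenase kinases Pdk3 gave 56.9%, Pdk1 25.7%, Pdk2 17% and Pdk4 0.341%. Without division by length Pdk1 (49.4%) came before Pdk3 (36.7%), so that order rests on the exon lengths used. Pfkfb1 (7.84%) and Pfkfb2 (8.80%) also changed places. Without it the shares were 26.9% for Slc2a1, 73.5% for Hk1, 16.1% for Hk3, 18.1% for Pfkm and 12.8% for Pfkp.

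The first question was whether maternal Western diet changed these genes in daughters. In females 7 of the 33 passed the test (edgeR quasi-likelihood, Benjamini-Hochberg adjusted p under 0.05 over all genes), or 21.2%, beside 5.42% of all genes tested. Because the 33 were chosen with earlier results of these data known, the 2 shares are a description and not an independent comparison. Hk2, Pfkp, Pgam1 and Pkm were higher (4 of 33, against 2.20% of genes higher), and Hk1, Pfkm and Eno3 were lower (3 of 33, against 3.22% of genes lower). The changes went in opposite directions within the hexokinases and within the phosphofructokinases. The median log2 fold change of the 33 was 0.08, beside 0.03 over all genes, and 19 were positive and 14 negative. At an unadjusted p under 0.05 there were 15 of the 33, beside 21.3% of all genes. No glycolysis gene had diet groups that did not overlap in females, beside 1.18% of all genes.

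These calls did not hold when some libraries were left out. Without batch 2, without batch 3 or without the batch term 0 of the 33 passed in females, and without control female replicate 3, 5 or 6 or Western-diet female replicate 5 alone 1 passed. Without both batch 3 control females 0 of the 33 passed in females, and all genes called fell from 1064 to 154. The direction of all 7 was the same without them, with smaller sizes for 6 of the 7, as given for each gene below.

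The same libraries differed in progenitor markers, whose lists were also chosen with earlier results of these data known. Of 11 tested megakaryocyte-erythroid markers 6 were lower in Western-diet females and none higher, with a median log2 fold change of -1.0, beside 3.22% of all genes lower. Among them Gata1 and Klf1, transcription factors of the erythroid branch, changed by -1.0 ± 0.18 and -1.33 ± 0.29 (log2 ± SE). In males 1 of the 11 megakaryocyte-erythroid markers was lower with edgeR, beside 0.0102% of all genes, and 10 were negative (median -0.40). Averaged over both sexes 6 of the 11 were lower (median -0.76), beside 3.51% of all genes. The level summed over the 12 listed genes ran from 1837 to 5238 CPM in control females and 997 to 2273 in Western-diet females. In males it ran from 1365 to 3773 CPM in controls and from 1085 to 1871 after the Western diet. Of 10 granulocyte-monocyte markers 9 had positive log2 fold changes in females (median 0.72) and none passed, and their sum ran from 2675 to 6128 CPM in control females and from 4308 to 12902 in Western-diet females. Mature erythroid markers were lower for 5 of 10 in females (median -0.98), with sums from 1256 to 8619.7 CPM in controls and 675 to 2820.3 CPM after the Western diet. In males none of the 10 passed with edgeR, all 10 were negative (median -1.22), and the sums ran from 2602 to 6948 CPM and from 935 to 3195 CPM. Averaged over both sexes 8 of these 10 were lower, beside the averaged calls of Pfkm and Eno3, and 3.51% of all genes were lower. Of 8 B cell markers 2 were higher in females and all 8 positive (median 0.46), beside 2.20% of all genes higher. Of 10 LSK markers 1 was higher in females, with 7 positive and 3 negative (median 0.45). In males none of either list passed with edgeR, with 3 B cell markers positive and 5 negative (median -0.06) and 5 LSK markers positive and 5 negative (median 0.00). B cell sums ran from 362 to 1096 CPM in control females (median 714) and from 477 to 2049 CPM in Western-diet females (median 1050.1). LSK sums ran from 1131 to 2139 CPM (median 1721) and from 1338 to 2386 CPM (median 1718). No marker list had a gene at 0 in every library. The part of these markers in the glycolysis results was not tested, and in bulk samples fewer cells of a type and less RNA per cell cannot be told apart.

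**Figure D2:**
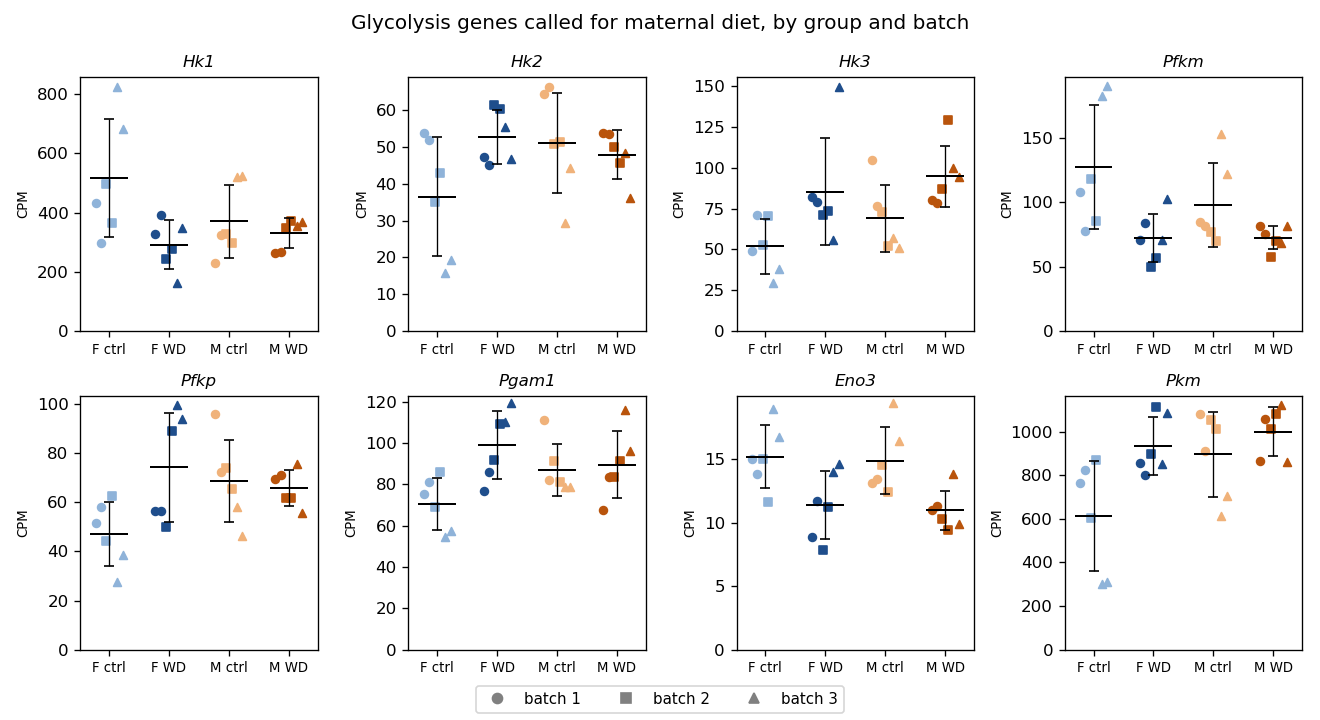
CPM of the 8 glycolysis genes called in females or over both sexes, by group (F, female; M, male; ctrl, control; WD, Western diet), with 1 point per library, shape for batch, and bars for mean and SD (n = 6). In control females the batch 3 points are the highest for Hk1, Pfkm and Eno3 and the lowest for Hk2, Hk3, Pfkp, Pgam1 and Pkm.

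Glucose transporters did not pass in either sex. Slc2a1 ran from 9.71 to 35.6 CPM in control females (median 28.4) and from 20.5 to 32.9 in Western-diet females (median 26.6), and the log2 fold change was 0.21 ± 0.18 (edgeR adjusted p = 0.548). The 2 lowest of all 24 libraries for this basal transporter were batch 3 control females, at 9.71 and 12.5 CPM. Slc2a3, the high-affinity transporter, had a log2 fold change of 0.08 ± 0.18 in females (edgeR adjusted p = 0.857) and 0.07 ± 0.18 in males.

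Hexokinases moved apart. Hk1, which binds the outer mitochondrial membrane and feeds basal glycolysis, ran from 298 to 824 CPM in control females (median 463) and from 160.4 to 392 in Western-diet females (median 301). Control males held 230.1 to 522 CPM (median 325) and Western-diet males 263 to 373 (median 352). The highest libraries were the batch 3 controls, 824 and 681 CPM in females and 521 and 522 in males, which also had the highest megakaryocyte-erythroid sums. Hk1 fell by 0.74 ± 0.21 in log2 in females (edgeR adjusted p = 0.0412), with all 6 Western-diet libraries below the control mean and the groups overlapping. Within batches 1, 2 and 3 the female difference was -0.00, -0.71 and -1.67 in log2. In males it was -0.12 (edgeR adjusted p = 0.892), and without the batch 3 control females the female value was -0.52 and did not pass.

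Hk2, the inducible hexokinase of fast-growing and insulin-responsive tissues, ran from 15.7 to 53.7 CPM in control females (median 38.8) and from 45.0 to 61.5 in Western-diet females (median 51.3). Control males ran from 29.2 to 66.4 CPM (median 51.1) and Western-diet males from 36.1 to 53.9 (median 49.2). Control females thus had the lowest median of the 4 groups, and their ranges overlapped those of the others. Hk2 rose by 0.65 ± 0.19 in log2 in females (edgeR adjusted p = 0.0415), with all 6 Western-diet libraries above the control mean. The difference was -0.19 in batch 1, 0.66 in batch 2 and 1.54 in batch 3, and 0.33 without the batch 3 control females. In males the value was -0.06 (edgeR adjusted p = 0.955).

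Hk3, the hexokinase found mainly in myeloid cells, ran from 29.6 to 71.2 CPM in control females (median 50.9) and from 55.9 to 149.5 in Western-diet females (median 76.4). In males it ran from 50.6 to 105 CPM in controls (median 64.8) and from 78.6 to 129 after the Western diet (median 90.6). The upper value in females belonged to 1 library of batch 3, Western-diet female replicate 6, which also had the highest granulocyte-monocyte marker sum of all libraries, 12902 CPM. The log2 fold change was 0.75 ± 0.23 in females (edgeR adjusted p = 0.0586) and 0.48 ± 0.23 in males (edgeR adjusted p = 0.590). Averaged over both sexes Hk3 rose by 0.62 ± 0.17 in log2 (edgeR adjusted p = 0.0274), and without the batch 3 control females the value was 0.47 and did not pass. By batch the difference was 0.45, 0.25 and 1.45 in females and -0.18, 0.79 and 0.85 in males.

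The mean share of Hk1 in hexokinase CPM per kb was 72.8% ± 13.4 in control females and 51.2% ± 6.59 in Western-diet females (SD, n = 6). In males it was 60.4% ± 13 and 53.3% ± 3.24. The log2 ratio of Hk1 to Hk2 differed by -1.46 between diets in females (exact permutation within batch, two-sided, p = 0.0463, adjusted p = 0.159 over 24 tests) and by -0.06 in males (exact permutation p = 0.796).

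Gpi1, which turns glucose 6-phosphate into fructose 6-phosphate, had a log2 fold change of 0.24 ± 0.11 in females (edgeR adjusted p = 0.214) and 0.16 ± 0.11 in males. Its level was 301 to 476 CPM in control females and 405 to 537 in Western-diet females.

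Of the phosphofructokinases, Pfkm was called lower and Pfkp higher in females, and the ratio of these 2 was not tested. Pfkm, the muscle-type subunit, which red cells also use, ran from 77.9 to 189.9 CPM in control females (median 113) and from 49.9 to 102 in Western-diet females (median 70.7). Control males ran from 69.8 to 153 CPM (median 83.1) and Western-diet males from 57.7 to 81.5 (median 72.7). Batch 3 controls again held the 4 highest values, 182 and 189.9 CPM in females and 153 and 122 in males. Pfkm fell by 0.78 ± 0.15 in log2 in females, 1.71-fold (edgeR adjusted p = 0.00344), and all 6 Western-diet libraries lay below the control mean. The female difference was -0.25, -0.91 and -1.13 in batches 1, 2 and 3. In males it was -0.37 ± 0.15 (edgeR adjusted p = 0.493), with -0.08, -0.20 and -0.87 by batch. Averaged over both sexes it fell by 0.57 ± 0.11 (edgeR adjusted p = 0.00176), and without the batch 3 control females the average was -0.51 and still passed, while the female value of -0.62 did not.

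Pfkp, the platelet-type subunit, ran from 27.5 to 62.5 CPM in control females (median 48.0) and from 49.9 to 99.9 in Western-diet females (median 72.8). The male ranges were 46.4 to 95.9 CPM (median 68.9) in controls and 55.5 to 75.5 (median 65.7) after the Western diet. As for Hk2, control females were the lowest group by median and overlapped the others. Pfkp rose by 0.69 ± 0.20 in log2 in females (edgeR adjusted p = 0.0463), by 0.04, 0.34 and 1.58 in batches 1, 2 and 3. Without the batch 3 control females the value was 0.43 and did not pass. In males the value was -0.05 (edgeR adjusted p = 0.964).

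Pfkl, the main isoform, ran from 293 to 383 CPM in control females and from 300.2 to 444 in Western-diet females, with log2 fold changes of 0.07 ± 0.09 in females (edgeR adjusted p = 0.761) and -0.07 ± 0.09 in males. The share of Pfkm in phosphofructokinase CPM per kb was 40.3% ± 8.35 in control females against 27.1% ± 5.91 in Western-diet females, and 32.4% ± 6.47 against 27.8% ± 4.51 in males (SD, n = 6). The log2 ratio of Pfkl to Pfkm was higher by 0.83 in Western-diet females, at the smallest p the arrangements can give (exact permutation p = 0.00926, adjusted p = 0.111), and by 0.31 in males (exact permutation p = 0.0833). Over 24 tests 1 ratio at that smallest p cannot by itself reach an adjusted p under 0.05, however large its difference.

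**Figure D3:**
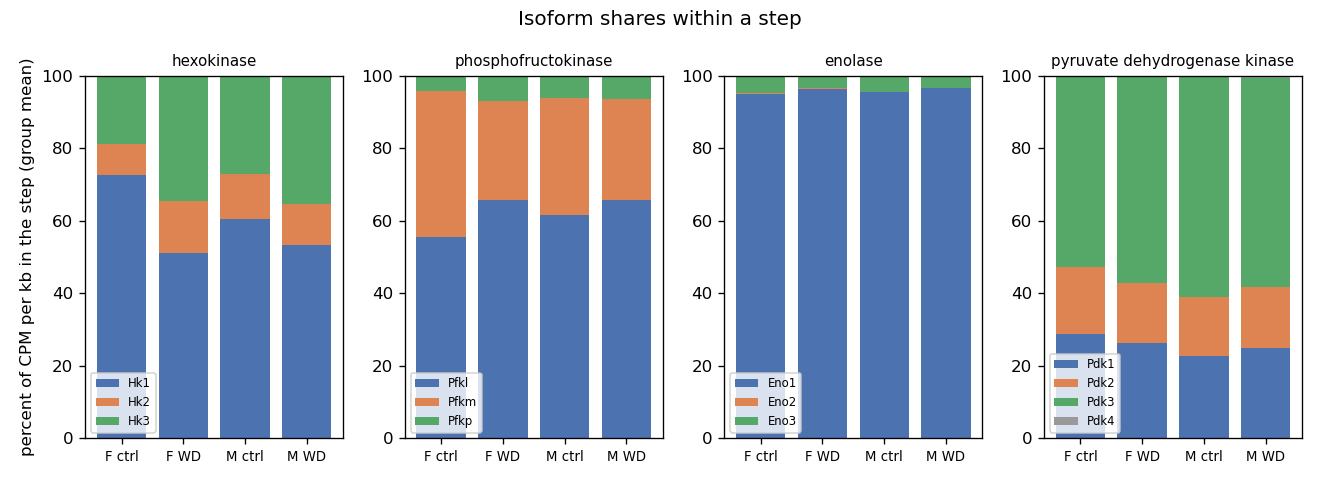
Group mean share of each isoform in its step's CPM per kb (percent, n = 6 per bar) for hexokinase, phosphofructokinase, enolase and pyruvate dehydrogenase kinase, in control and Western-diet (WD) females (F) and males (M). Hk1 makes 72.8% and 51.2%, and Pfkm 40.3% and 27.1%, of their steps in control and Western-diet females, while Eno1 fills nearly all of enolase in every group.

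The 4 bifunctional enzymes did not pass. In females the log2 fold changes were -0.13 ± 0.19 for Pfkfb1, -0.38 ± 0.17 for Pfkfb2, 0.30 ± 0.13 for Pfkfb3 and -0.42 ± 0.22 for Pfkfb4. Their edgeR adjusted p ran from 0.176 to 0.768 in females. Pfkfb3, the kinase-favouring form, held 16.5 to 34.7 CPM in control females and 24.5 to 41.3 in Western-diet females.

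Of the aldolases and the enzymes that handle triose sugars and phosphoglycerates, Pgam1 passed in females and the others did not. Aldoa ran from 611 to 683 CPM in control females and from 523 to 816 in Western-diet females, with a log2 fold change of 0.03 ± 0.09, and Gapdh, which makes NADH, had 0.08 ± 0.14. Tpi1 had 0.14 ± 0.17 and Pgk1, the first ATP-forming enzyme, 0.39 ± 0.14 (edgeR adjusted p = 0.103). Aldoc, the brain-type aldolase, had values of 2.39 to 6.27 CPM in control females and 2.48 to 9.25 in Western-diet females, and log2 fold changes of 0.35 ± 0.24 in females and 0.50 ± 0.24 in males (edgeR adjusted p = 0.590 in males). None of these 5 genes passed.

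Pgam1, the main phosphoglycerate mutase, ran from 54.5 to 85.8 CPM in control females (median 72.2) and from 76.8 to 119.6 in Western-diet females (median 101). In males it ran from 78.6 to 111 CPM (median 81.6) and from 67.5 to 116 (median 87.3). Pgam1 rose by 0.48 ± 0.14 in log2 in females (edgeR adjusted p = 0.0463), with 0.06, 0.38 and 1.04 in batches 1, 2 and 3. The value was 0.27 without the batch 3 control females and did not pass. In males the value was 0.04 (edgeR adjusted p = 0.963).

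Enolase was nearly all Eno1, which ran from 864 to 979 CPM in control females and from 769 to 1335 in Western-diet females and had log2 fold changes of 0.08 ± 0.10 in females and -0.05 ± 0.10 in males. Eno3, the muscle enolase, was about as low in both Western-diet groups. It ran from 11.6 to 18.9 CPM in control females (median 15) and from 7.85 to 14.6 in Western-diet females (median 11.5). In males it ran from 12.4 to 19.4 CPM (median 14) and from 9.41 to 13.8 (median 10.7). Eno3 fell by 0.42 ± 0.12 in log2 in females (edgeR adjusted p = 0.0411), and the male value was -0.43 ± 0.12 (edgeR adjusted p = 0.278). Averaged over both sexes it fell by 0.43 ± 0.09 (edgeR adjusted p = 0.00348).

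The Eno3 difference was negative in all 3 batches of both sexes, at -0.50, -0.49 and -0.31 in females and -0.24, -0.45 and -0.61 in males. Without the batch 3 control females its female value was -0.44, did not pass, and the average of -0.44 passed. The log2 ratio of Eno1 to Eno3 was higher by 0.50 in Western-diet females, again at the smallest p possible (exact permutation p = 0.00926, adjusted p = 0.111). It was higher by 0.39 in Western-diet males (exact permutation p = 0.0370, adjusted p = 0.159). Eno2 had log2 fold changes of -0.80 ± 0.36 in females and -0.17 ± 0.35 in males and did not pass.

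Pkm, pyruvate kinase of all tissues but liver and red cells, ran from 299.6 to 869.5 CPM in control females (median 685) and from 799 to 1115 in Western-diet females (median 876). Control males ran from 613 to 1082 CPM (median 961) and Western-diet males from 859.9 to 1123 (median 1035). Within each control group the 2 lowest libraries were those of batch 3, and the diet groups overlapped. Pkm rose by 0.69 ± 0.19 in log2 in females (edgeR adjusted p = 0.0314), by 0.06, 0.46 and 1.65 in batches 1, 2 and 3. In males the value was 0.20 (edgeR adjusted p = 0.795), and the average over both sexes was 0.44 ± 0.13 (edgeR adjusted p = 0.0482). Without the batch 3 control females the female value was 0.34 and the average 0.25, and neither passed. Gene counts do not separate its M1 and M2 splice forms.

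The second pyruvate kinase gene, Pklr, which makes the liver and red cell enzymes and is not one of the 33, moved the other way. It ran from 72.8 to 394 CPM in control females (median 173) and from 30.5 to 106 in Western-diet females (median 51.8). Pklr fell by 1.67 ± 0.32 in log2 in females (edgeR adjusted p = 0.00315) and by 1.12 ± 0.22 averaged over both sexes (edgeR adjusted p = 0.00352). Without the batch 3 control females the female value was -1.48 and did not pass, and the average of -1.04 passed.

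Lactate genes did not pass. Ldha ran from 759 to 959 CPM in control females and from 549 to 1349.8 in Western-diet females, where the 3 values of replicates 4, 5 and 6 were 1196, 1349.8 and 1078, and its log2 fold change was 0.14 ± 0.17 in females and -0.24 ± 0.17 in males. Ldhb, the heart-type subunit, had 0.36 ± 0.14 in females (edgeR adjusted p = 0.136) and 0.02 ± 0.14 in males. The lactate exporter Slc16a3 (MCT4) ran from 9.33 to 16.7 CPM in control females and from 3.19 to 12.2 in Western-diet females, against 5.76 to 14.1 and 11.1 to 13.3 in males. Its log2 fold changes of -0.53 ± 0.23 in females and 0.22 ± 0.23 in males differed by 0.76, which did not pass (edgeR adjusted p = 0.590). Slc16a1 had -0.43 ± 0.26 in females and -0.16 ± 0.26 in males.

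At the entry to mitochondria the log2 fold changes in females were -0.61 ± 0.30 for Pdk1, -0.59 ± 0.31 for Pdk2, -0.30 ± 0.18 for Pdk3 and 0.28 ± 0.47 for Pdk4, none of which passed. Pdk2 ran from 25.8 to 39.1 CPM in control females and from 9.58 to 41.7 in Western-diet females, with 11.1, 9.58 and 11.3 CPM in replicates 4, 5 and 6. Pdha1 and Pdhb, the subunits of the enzyme these kinases inhibit, had -0.05 ± 0.10 and -0.10 ± 0.07 in females and -0.21 ± 0.10 and -0.05 ± 0.07 in males.

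**Figure D4:**
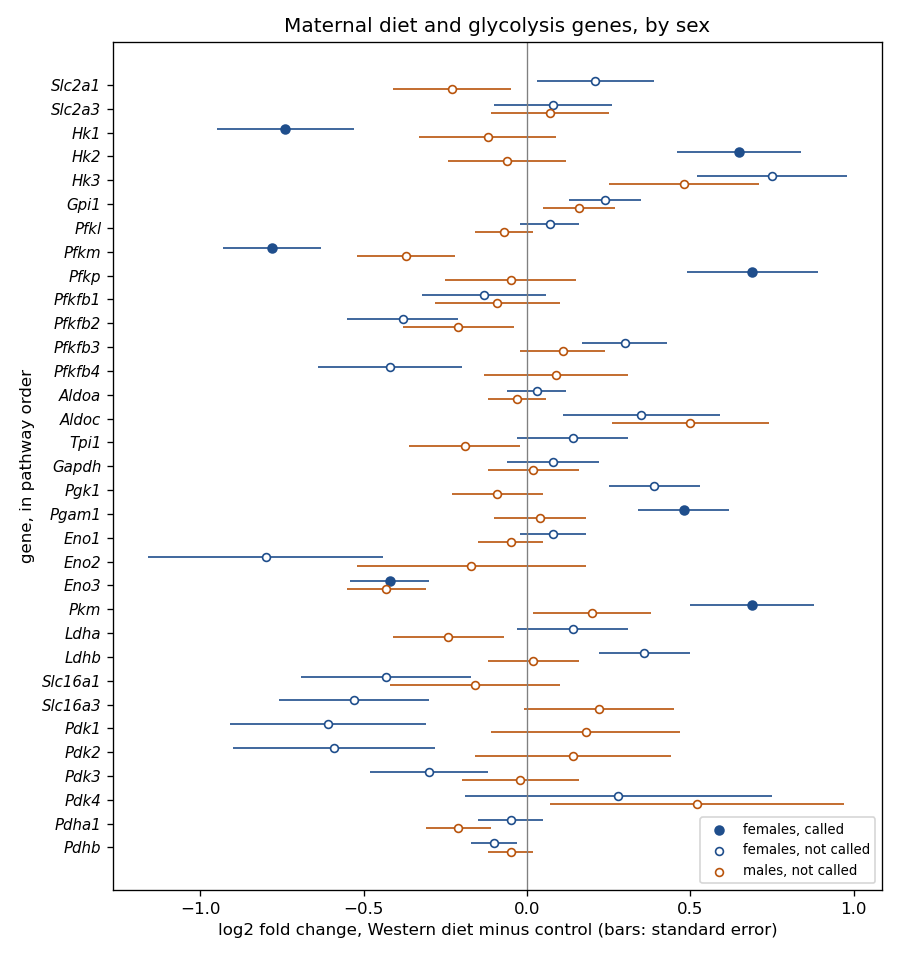
Log2 fold change of each of the 33 glycolysis genes, Western diet minus control, with its standard error, in females (blue) and males (orange), in pathway order from top to bottom. Filled points passed the test, 7 in females and 0 in males, and Eno3 has nearly the same value in both sexes.

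In sons 0 of the 33 genes passed with edgeR, beside 0.0102% of all genes (2 genes). There were 5 of the 33 at an unadjusted p under 0.05, beside 8.45% of all genes, and DESeq2 called 1, Eno3. The median log2 fold change of the 33 in males was -0.05, beside 0.02 over all genes. No glycolysis gene had diet groups that did not overlap in males, beside 0.500% of all genes.

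Averaged over both sexes 4 of the 33 passed (12.1%), beside 5.70% of all genes: Hk3 and Pkm were higher (2 of 33, against 2.19% of genes higher) and Pfkm and Eno3 lower (2 of 33, against 3.51% of genes lower). The averaged median of the 33 was -0.01, beside 0.02 over all genes. Without the batch 3 control females 2 of the 33 passed, Pfkm and Eno3, and without the whole of batch 3 0 passed.

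Whether daughters and sons differed in their response was tested as an interaction. It gave 0 calls among the 33 and 0% of all genes with edgeR. At an unadjusted p under 0.05 there were 6 of the 33 and 8.32% of all genes (1633), and DESeq2 called 0 of the 33 and 4 of all genes. The male minus female difference of the log2 fold changes was 0.61 for Hk1, -0.70 for Hk2, -0.74 for Pfkp and 0.41 for Pfkm (edgeR adjusted p from 0.589 to 0.610). The calls in females and their absence in males are therefore not shown to differ. For sex itself, averaged over diets, edgeR called 0 of the 33 beside 0.184% of all genes (0.148% higher and 0.0357% lower in males), with 4 of the 33 at an unadjusted p under 0.05, beside 12.4% of all genes, and 0 by DESeq2.

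Batch was tested over all 24 libraries with group in the model. For batch 7 of the 33 passed (21.2%), no larger a share than the 24.2% of all genes. Slc2a1 averaged 33.6, 28 and 20.3 CPM in batches 1, 2 and 3 (edgeR adjusted p = 0.00402), Hk2 54.5, 49.7 and 36.9 CPM (edgeR adjusted p = 0.0127), and Pfkm 82.9, 73.0 and 121 CPM (edgeR adjusted p = 0.00145). Eno3 (12.3, 11.5 and 15.5 CPM), Pfkfb3 (35.2, 33.9 and 26.6), Eno2 (0.838, 0.560 and 0.300) and Pdhb (353, 314 and 381) also passed. Hk2, Pfkm and Eno3 were called for batch and for diet in females, and each group had 2 libraries in every batch, so that batch was a term of the model. That term is the same for every group, and a diet effect that varies between batches was not tested. In batch 3 Pfkm ran from 122 to 189.9 CPM in controls of both sexes and from 68.2 to 102 after the Western diet. Hk2 ran there from 15.7 to 44.3 CPM and from 36.1 to 55.3, and Eno3 from 16.4 to 19.4 and from 9.88 to 14.6.

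Across the related genes of sugar handling 81 of 89 listed genes were tested, and in females 6 were higher and 8 lower, beside 2.20% and 3.22% of all genes. This list too was chosen with earlier results of these data known. Of these 14 female calls 0 held without the batch 3 control females. Among 18 transport and storage genes 1 was higher and 2 lower: Pgm1, a phosphoglucomutase, rose by 0.52 in log2, and Slc2a4, the insulin-regulated transporter GLUT4, and Slc2a8 fell by 1.83 and 1.19. These values were 0.28, -1.77 and -0.86 without those libraries. Slc2a4 is scarce in these cells, with 0.899 to 2.19 CPM in control females and 0.161 to 1.04 in Western-diet females. Among 25 other glycolysis-linked genes 4 were higher and 3 lower. The higher ones were Ldhc (0.92), Tigar (1.37), which lowers fructose 2,6-bisphosphate, Gpd2 (0.38), a glycerol phosphate shuttle enzyme, and Galk2 (0.93), with 0.84, 0.85, 0.29 and 0.80 without the batch 3 control females. The lower ones were Pgam2 (-0.69), the muscle mutase, Pmm1 (-0.60) and Pklr, with -0.72 for Pgam2 and -0.54 for Pmm1 without those libraries.

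Of 12 genes of pyruvate entry and the first reactions of the citric acid cycle 3 were lower in females and none higher, beside 3.22% of all genes lower. Pcx, pyruvate carboxylase, fell by 1.54 ± 0.31 in log2, from 13.8 to 29.7 CPM in control females to 2.41 to 11.1 in Western-diet females, which did not overlap, as for 1.18% of all genes. Pck2 fell by 0.45 and citrate synthase, Cs, by 0.37. The values were -1.32 for Pcx, -0.34 for Pck2 and -0.34 for Cs without the batch 3 control females. Of 7 pentose phosphate genes 0 passed with edgeR in females. Of 19 regulators Meis1, a homeobox factor of stem cells, rose by 0.52 (0.36 without those libraries), while Hif1a had 0.21 ± 0.20 and Txnip, which restrains glucose uptake, -0.02 ± 0.14. In males 0 of the 81 passed with edgeR, and averaged over both sexes 3 were higher and 9 lower, beside 2.19% and 3.51% of all genes. Among the lower were Bpgm, which makes 2,3-bisphosphoglycerate in red cells (-0.53), and Prkaa1, an AMP-activated kinase subunit (-0.38), with -0.59 and -0.31 without the batch 3 control females. Without those libraries 5 of the 12 averaged calls held, for Slc2a4, Pklr, Galk2, Pmm1 and Cs. All 5 were lost when the whole of batch 3 was left out. Slc2a4 and Pklr were also lost without batch 2, and Pmm1 and Cs without the batch term.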

How the data were processed

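Gene expression was measured by polyA RNA-seq in 24 libraries of LSK cells. The deposited files hold raw counts per Ensembl gene, made by the authors with FastQC, cutadapt, STAR, HTSeq and DESeq2 on GRCm39 per the submitters' processing notes, with versions and strand setting not given in the sources used here. Closing lines that name no gene were 31.0% to 39.3% of each file's total and were left out. Symbols, chromosomes and exon lengths came from GENCODE M21 (GRCm38), an older build than the files', so no coordinates were joined to the counts, and 52081 of 55414 identifiers had a symbol. All genes kept by filterByExpr were fitted once with edgeR 4.0.16 in R 4.3.3 (TMM factors 0.932 to 1.05, robust quasi-likelihood, group and batch terms, common coefficient of variation 0.261). Adjusted p is Benjamini-Hochberg over 19616 genes, with calls under 0.05. CPM use TMM-scaled library sizes. Log2 isoform ratios were compared by exact permutation within batch (216 arrangements) and adjusted over 24 tests, 12 pairs in 2 sexes. The scripts were tested on simulated data. Alternatives were DESeq2 1.42.0, its size factors in edgeR, no filter, no batch term, a replicate block and left-out libraries or batches. The glycolysis genes and all lists were chosen with earlier results of these data known. Named genes are all 33, the 14 related pathway genes called in females, some of those called over both sexes, the regulators Hif1a and Txnip, and some of the markers. Of 89 marker genes listed 88 were matched.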

Additional observations from a re-analysis of the deposited data

Results flagged for a closer look

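For each of the 33 genes and 4 groups, the highest and lowest of 6 libraries were compared with their neighbours, and 7 of 132 groups had a library set apart by more than Dixon's critical value, where chance gives about 1 in 20 (5%). In Western-diet females Hk3 was highest in replicate 6 at 149.5 CPM, and the next library was at 82.2 CPM. Replicate 6 was also lowest for Pdk3, at 25.2 CPM against 57.3 CPM for the next. Slc16a3 was lowest in Western-diet female replicate 5, at 3.19 CPM against 9.93 CPM. Pfkfb4 was highest in control female replicate 3 (20.5 CPM against 15.3 CPM) and Pfkfb1 in Western-diet male replicate 4 (5.60 CPM against 4.17 CPM). The scarce Eno2 was highest in Western-diet female replicate 1 (1.22 CPM against 0.514 CPM) and in control male replicate 2 (1.47 CPM against 0.590 CPM).

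Slc16a3 also moved in opposite directions in the sexes, with every Western-diet female below the control female mean and every Western-diet male above the control male mean. The interaction of 0.76 in log2 did not pass (edgeR adjusted p = 0.590).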

How the results depend on the processing

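Calls of glycolysis genes in females (7 of 33) became 0 without a batch term, without batch 2, without batch 3 or without the batch 3 control females, and 8 with DESeq2. All genes called in females (1064) became 2023 without the filter, 404 without a batch term, 1839, 297 and 146 without batch 1, 2 and 3, 154 without the batch 3 control females and 1805 with DESeq2. In males DESeq2 called 1 of the 33, and all genes called (2) became 380 without the filter, 99 with DESeq2, 1 without batch 1 or batch 2 and 0 without batch 3 or a batch term. Averaged over both sexes the 4 calls became 2 without a batch term, without batch 2 or without the batch 3 control females, 8 without batch 1 and 0 without batch 3, and all genes (1118) became 1693 without the filter, 466 without a batch term, 556 without batch 2, 143 without batch 3, 447 without the batch 3 control females and 1784 with DESeq2. The interaction gave 3 of the 33 and 572 of all genes without the filter, and 4 of all genes with DESeq2. Sex gave 3 of the 33 without the filter, and all genes (36) became 967 without the filter, 12 without a batch term, 124 and 23 without batch 1 and 3, 19 without the batch 3 control females and 257 with DESeq2. All genes called for batch (4753) became 2946 without the batch 3 control females. Fewer libraries entered the fits that left some out, and otherwise the cause was not tested. Slc2a1 in females reversed to -0.24 in log2 without batch 3, from 0.21.

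Leaving out 1 library at a time gave 1 to 8 glycolysis calls in females, 2 to 5 averaged, 0 in males, for sex and for the interaction, and 7 to 10 for batch. Over all genes the ranges were 504 to 1386 in females, 1 to 13 in males, 716 to 1464 averaged, 22 to 66 for sex, 0 for the interaction and 3702 to 5123 for batch. The female count fell to 1 without control replicate 3, 5 or 6 or Western-diet replicate 5, to 2 without Western-diet replicate 6, to 3 without control female 1, Western-diet female 3, control male 4 or Western-diet male 2 or 6, and to 4 without Western-diet female 4, control male 3 or Western-diet male 1 or 3. The averaged count was 2 without control female 5 or 6, control male 4, 5 or 6, or Western-diet male 5 or 6. Of 33 alternatives, the female call was lost in 4 for Pfkm, 14 for Hk1 and Eno3, 13 for Pkm, 17 for Hk2, 21 for Pfkp and 23 for Pgam1, and the averaged call in 1 for Pfkm and Eno3, 12 for Hk3 and 23 for Pkm.

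With the replicate number as a block in place of batch, 1 of the 33 passed in females, 3 averaged and 0 in males, and all genes called were 827 in females, 924 averaged and 1 in males. Same-numbered libraries share a batch. With only group means removed, their median correlation was 0.18, with 28 of 36 pairs above 0.1, and 11 libraries matched best with their own number. Once batch means were also removed, the median was -0.14, with 6 of 36 pairs above 0.1, and no library matched best with its own number. Removing batch means itself lowers correlations within a batch, so these values cannot decide whether the numbers pair the libraries. The main fit used batch and not the number.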
